A study of Homo sapiens with 6 samples.

Results

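The SLC25 family comprises carrier proteins, most of them of the mitochondrial inner membrane, and its expression was described here in MDA-MB-231 cells, an established triple-negative breast cancer line, with and without knockdown of YAP1. The genes were chosen by symbol and level: of 48 protein-coding genes named SLC25A plus a number, 40 had a mean of at least 0.5 FPKM (fragments mapped to a transcript, scaled to its length and to the size of the library) over the 6 libraries, and these 40 were among 14770 genes tested at that level and 60612 gene identifiers in all. To examine the network around HJURP and YAP1 (a transcriptional co-activator of the Hippo pathway), the study sequenced RNA from cells stably expressing a control hairpin (Sh-NC, genotype WT in the labels) or a YAP1 hairpin (Sh-YAP1), with no further treatment, at day 3 and with 3 libraries in each group. Both groups come from 1 cell line and carry a hairpin, and the labels name neither separate cultures nor clones, so the p-values measure the spread between these libraries, which may be technical. YAP1 stood at 28.12, 26.24 and 22.87 FPKM in the Sh-NC libraries and at 3.35, 2.67 and 2.58 FPKM in the Sh-YAP1 libraries. The log2 fold change of YAP1 was −2.79 ± 0.12 (SE, adjusted p = 0.00180, limma with Benjamini-Hochberg adjustment).

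Markers of the labelled cell type were checked first. The mesenchymal-type line expressed VIM at a mean of 1996 FPKM, AXL at 228 FPKM and EGFR at 58.4 FPKM, while ESR1 and PGR were near 0. ERBB2 was at a mean of 15.2 FPKM and EPCAM at 2.81 FPKM. Of 13 markers of other cell types, 11 were under 0.5 FPKM and 3 of these were listed at 0. The exceptions were PECAM1 at a mean of 1.27 FPKM and CD68 at 69.7 FPKM. CD68 made up nearly all of the summed level of the 13 markers, which ranged from 58.2 to 80.9 FPKM in Sh-NC and from 67.3 to 82.1 FPKM in Sh-YAP1. The files give no read counts, so the depth of the libraries is unknown, and in bulk RNA fewer cells of a kind and less RNA per cell cannot be told apart.

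As background, SLC25 carriers exchange metabolites between the cytosol and the mitochondrial matrix, and most share a fold built from repeats of a membrane module. The ADP/ATP carriers and the phosphate carrier bring in the substrates of ATP synthase. Others move citrate, malate, aspartate, acylcarnitines, iron, folate, coenzyme A and NAD, and a few have no settled substrate. The members of the inner membrane are made in the cytosol and inserted there by the TIM22 complex.

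The carriers covered a wide span of expression. SLC25A3, SLC25A5 and SLC25A6 were at 100 FPKM or more on average, 9 carriers were between 20 and 100 FPKM, 17 between 5 and 20 FPKM, and 11 between 0.5 and 5 FPKM. The phosphate carrier SLC25A3 led the Sh-NC libraries, and the ADP/ATP carrier SLC25A5 led the Sh-YAP1 libraries. In the order of mean levels over all 6 libraries, only 4 of 39 pairs of neighbours had ranges that did not overlap. These were SLC25A5 above SLC25A6, SLC25A6 above SLC25A39, SLC25A37 above SLC25A36, and SLC25A33 above SLC25A45. The members just inside the limit of 0.5 FPKM were SLC25A27, an uncoupling-protein-like carrier, at a mean of 0.68 FPKM, and SLC25A21, the oxodicarboxylate carrier, at 0.82 FPKM. Just outside were the glutamate carrier SLC25A18 at 0.11 FPKM and the NAD carrier SLC25A52 at 0.07 FPKM. SLC25A34, SLC25A41 and SLC25A48 were lower still. The germ-cell ADP/ATP carrier SLC25A31, the second ornithine carrier SLC25A2 and SLC25A47 were listed at 0 in every library.

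**Figure D1:**
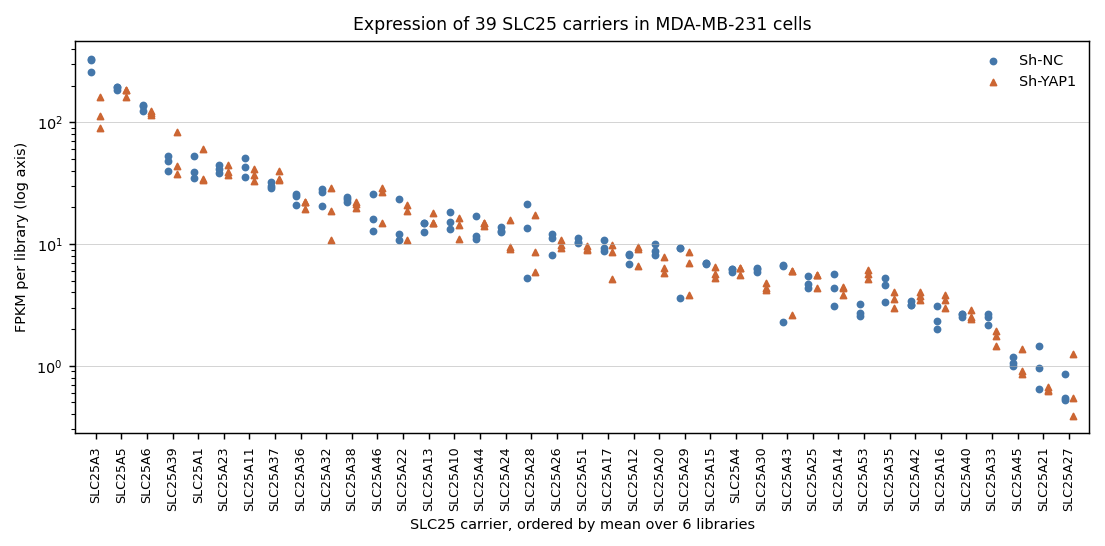
FPKM of 39 of the 40 carriers (log axis), ordered by their mean over 6 libraries, with circles for the 3 Sh-NC and triangles for the 3 Sh-YAP1 libraries. The first 3 carriers stand at 100 FPKM or more on average, and SLC25A3, at the left, has its Sh-NC libraries at 259 to 333 FPKM and its Sh-YAP1 libraries at 90.3 to 161 FPKM.

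To ask whether YAP1 knockdown went with a shift of the family, every carrier was compared between the groups. SLC25A3 had been singled out with its values known, so its difference is given as a description with no test. Among the other 39 carriers, 1 passed an adjusted p of 0.05. This was SLC25A53, which was higher in Sh-YAP1, and no carrier of the 39 was lower at that threshold. Over all genes 3.38% passed (1.75% higher and 1.62% lower). At an unadjusted p of 0.05, 7 of the 39 carriers passed, against 21.9% of all genes.

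The groups did not overlap in 11 of the 39 carriers, or 28.2%, which is close to the 29.4% of all genes. Of these, 3 were higher in Sh-YAP1 (SLC25A53, SLC25A37 and SLC25A42) and 8 were lower (among them SLC25A5, SLC25A6, SLC25A30, SLC25A33, SLC25A20, SLC25A15 and SLC25A51). The background is 14.6% of genes for higher and 14.7% for lower. The log2 fold change was below 0 in 27 of the 39 carriers, against 50.2% of all genes, and its median was −0.05, against −0.00138 over all genes tested. In 37 of the 39 the estimate lay within 0.5 of 0 on the log2 scale. The 95% interval stayed within 1 of 0 on the log2(FPKM + 1) scale in 33 of the 39 and reached 1 in 6. For carriers of low level, an interval within 1 of 0 on this scale can still hold a change of FPKM by a factor of 2.

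**Figure D2:**
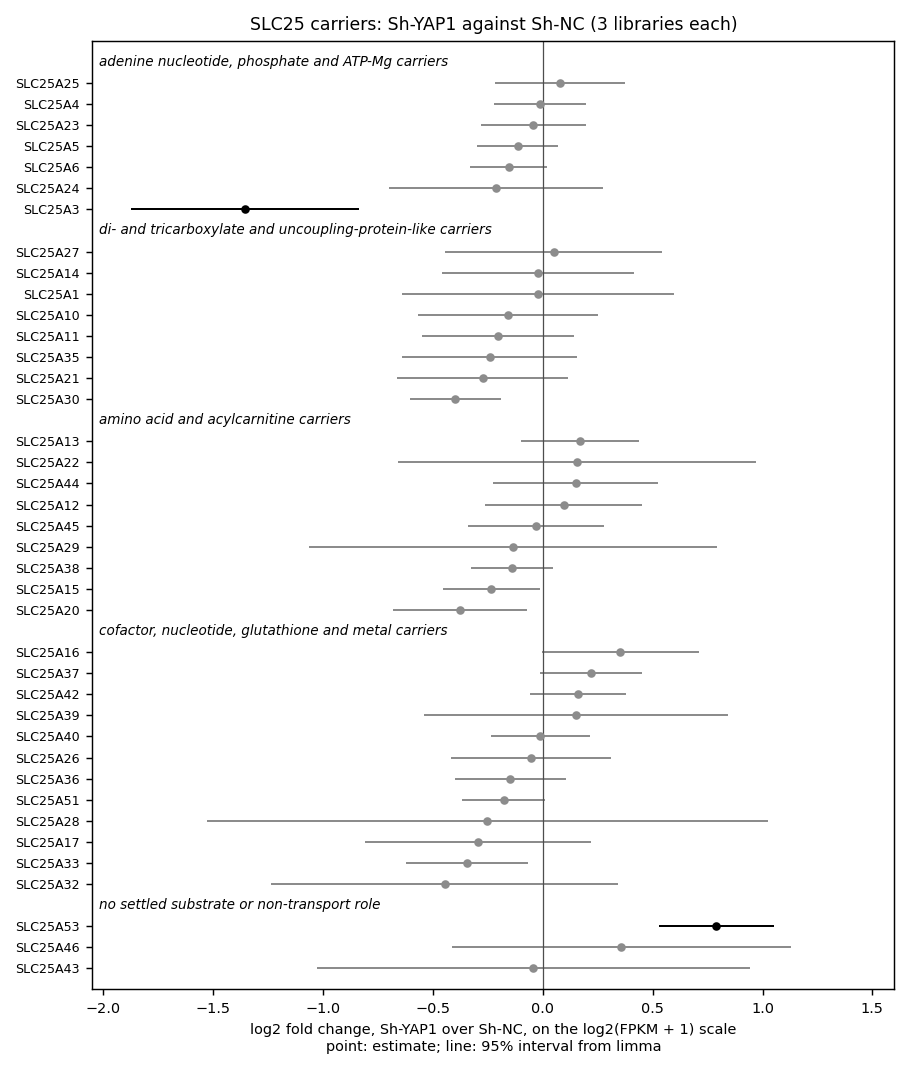
Log2 fold change of 39 of the 40 carriers, Sh-YAP1 over Sh-NC, on the log2(FPKM + 1) scale, grouped by substrate, with points for the estimate and lines for the 95% interval. SLC25A3 at −1.36 and SLC25A53 at 0.79 (black) lie outside the range of the other carriers shown, which runs from −0.45 to 0.36. Black marks these carriers by name, and SLC25A3 is given as a description with no test. The SLC25A3 estimate was 0.22 without its largest row and 1.27 without its first 2 rows.

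SLC25A3 carries inorganic phosphate into the matrix. It lies on chromosome 12 (GRCh38, 98593591 to 98606379, plus strand, in GENCODE 29, identifier ENSG00000075415). RefSeq places the start of SLC25A3 and that of SLC25A53 inside the gene as GENCODE 29 gives it, so of the 250 bases before each RefSeq start, those that also precede the GENCODE gene were kept. These bases (GRCh38.p14, chr12:98593436-98593590, plus strand, and chrX:104157028-104157259, minus strand) are shown because these genes had the largest differences in the family. Capitals mark a match to a half-site of the motif of NRF1, a factor known for nuclear genes of mitochondrial proteins.
SLC25A3: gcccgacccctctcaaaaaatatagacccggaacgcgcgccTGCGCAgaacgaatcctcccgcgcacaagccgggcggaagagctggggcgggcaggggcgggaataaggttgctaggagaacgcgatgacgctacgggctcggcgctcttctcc
SLC25A53: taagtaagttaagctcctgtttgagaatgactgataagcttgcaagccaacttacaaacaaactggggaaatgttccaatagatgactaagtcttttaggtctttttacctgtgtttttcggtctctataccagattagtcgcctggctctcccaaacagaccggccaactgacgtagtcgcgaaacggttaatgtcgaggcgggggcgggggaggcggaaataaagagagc
The printed SLC25A3 stretch held 65.2% G and C, and that of SLC25A53 46.6%. The NRF1 half-site was searched as TGCGCA, which reads the same on both strands, and the motif of TEAD factors, the DNA-binding partners of YAP1, as GGAATG on both strands. Promoter windows of 250 bases before the RefSeq start were matched for 34 of the 40 carriers, with 44 windows in all. The NRF1 half-site was in 3 of these windows (SLC25A3, SLC25A29 and SLC25A33), or 6.82%, and in 6.89% of 35116 windows of all genes. The TEAD motif was also in 3 (SLC25A23, SLC25A24 and SLC25A28), or 6.82%, and in 11.9% of all, and it was in neither full window of the genes printed above.

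The summed SLC25A3 level was lower in the Sh-YAP1 libraries. It was 333.36, 259.32 and 324.91 FPKM in Sh-NC and 90.27, 113.17 and 161.05 FPKM in Sh-YAP1, with no overlap. The means were 306 ± 40.5 and 121 ± 36.1 FPKM (SD, n = 3 each), a ratio of 0.397 and a log2 fold change of −1.36 ± 0.22 (SE).

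The gene total is the sum of 17 rows, 1 per transcript, and the rows moved in opposite directions. The largest row stood at 171.96, 213.11 and 186.11 FPKM in Sh-NC, and each Sh-YAP1 library listed it at 0. The next row was listed at 0 in Sh-NC replicate 2 and in Sh-YAP1 replicates 1 and 2, and was at 123.47, 104.75 and 75.03 FPKM in Sh-NC replicates 1 and 3 and Sh-YAP1 replicate 3. An exact 0 in FPKM can be a failed estimate, so these rows are described as listed at 0 and not as absent. The carriers have 20 rows of at least 10 FPKM on average, in 13 genes, and these 2 rows of SLC25A3 were the ones listed at 0 in at least 1 library, against 5.35% of all such rows. Of 6148 rows at 10 FPKM or more on average in Sh-NC, 0.797% stood at 0 throughout Sh-YAP1, and of 6151 such rows in Sh-YAP1, 0.569% stood at 0 throughout Sh-NC.

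The other 15 rows together were higher in Sh-YAP1. They summed to 37.93, 46.21 and 34.05 FPKM in Sh-NC and to 90.27, 113.17 and 86.02 FPKM in Sh-YAP1, a ratio of 2.45. The third row was at 8.58, 12.26 and 9.22 FPKM in Sh-NC and at 42.36, 60.19 and 37.46 FPKM in Sh-YAP1. The fifth row was at 3.34, 5.37 and 11.65 FPKM in Sh-NC and at 16.18, 12.89 and 16.55 FPKM in Sh-YAP1. Both rows had separate groups. Of the 17 rows, 5 were higher in Sh-YAP1 without overlap, 1 was lower, 9 overlapped and 2 were listed at 0 throughout. Over all tested rows, 6.34% were higher and 6.8% lower without overlap. Of the 9 rows past the first 2 with a mean of at least 1 FPKM, 8 had the higher mean in Sh-YAP1.

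The direction of the SLC25A3 difference therefore depended on the rows counted. Without the largest row, the sum was 161.40, 46.21 and 138.80 FPKM in Sh-NC and 90.27, 113.17 and 161.05 FPKM in Sh-YAP1. These groups overlapped, with a log2 fold change of 0.22. Without the first 2 rows the log2 fold change was 1.27. The first 2 rows held 88.6, 82.2 and 89.5% of the gene total in Sh-NC and 0, 0 and 46.6% in Sh-YAP1. The deposited rows name the gene but not the transcript. GENCODE 29 lists 17 transcripts of SLC25A3, of which 11 are protein coding, and which of these the first 2 rows are is not known here. Related loci were low: the single overlapping gene, SNORA53, was at most at 0.52 FPKM and the 3 SLC25A3 pseudogenes at most at 0.04 FPKM.

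**Figure D3:**
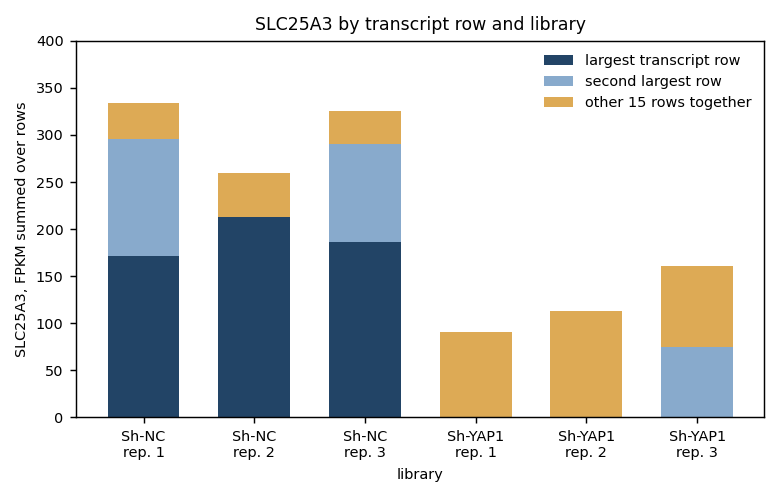
SLC25A3 FPKM in each library as stacked bars, split into the largest transcript row, the second largest row and the other 15 rows together. The largest row is present in the 3 Sh-NC libraries at 172 to 213 FPKM and listed at 0 in the 3 Sh-YAP1 libraries, where the other 15 rows reach 86.0 to 113 FPKM.

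Of the other 6 carriers of adenine nucleotides and ATP-Mg, none passed the test. SLC25A5, the main ADP/ATP carrier of these cells, was at 193.06, 193.22 and 185.74 FPKM in Sh-NC and at 160.88, 182.99 and 185.36 FPKM in Sh-YAP1. The groups were apart by less than 1 FPKM, and the log2 fold change was −0.11 (95% interval −0.29 to 0.07, adjusted p = 0.426). SLC25A6, a further ADP/ATP carrier, was at 136.02, 139.30 and 124.82 FPKM in Sh-NC and at 114.02, 124.38 and 120.19 FPKM in Sh-YAP1. The log2 fold change of SLC25A6 was −0.16 (95% interval −0.33 to 0.02, adjusted p = 0.264). The heart and muscle form SLC25A4 had means of 6.12 ± 0.216 and 6.07 ± 0.456 FPKM.

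The mix of ADP/ATP carriers overlapped between the groups. SLC25A5 made up 57.8% ± 0.780 of their sum in Sh-NC and 58.4% ± 1.03 in Sh-YAP1, and SLC25A6 40.4% ± 0.900 and 39.6% ± 1.06 (SD, n = 3 each). The ratio of SLC25A3 to the summed ADP/ATP carriers was 0.994, 0.766 and 1.03 in Sh-NC and 0.322, 0.361 and 0.516 in Sh-YAP1. Without the first 2 SLC25A3 rows the ratio was 0.119 ± 0.0154 in Sh-NC against 0.319 ± 0.0425 in Sh-YAP1. The calcium-regulated ATP-Mg/phosphate carriers SLC25A23, SLC25A24 and SLC25A25 overlapped between the groups. SLC25A23, the most abundant of them, had means of 41.2 ± 3.27 and 39.97 ± 3.82 FPKM. Of the 6 carriers of adenine nucleotides and ATP-Mg, 5 had a log2 fold change below 0 (50.2% of all genes) and 2 had separate groups (29.4% of all genes).

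The sum over the family followed the rows of SLC25A3. The 40 carriers summed to 1126 ± 28.6 FPKM in Sh-NC against 903 ± 70.7 FPKM in Sh-YAP1. Without SLC25A3 the sums were 820 ± 20.9 and 782 ± 47.9 FPKM (SD, n = 3 each), and these overlapped. SLC25A3 held 28.8, 23.6 and 28.9% of the family sum in Sh-NC and 10.99, 12.04 and 16.99% in Sh-YAP1. Without its first 2 rows both differences turned: the family summed to 859 ± 26.8 and 878 ± 59.3 FPKM, and SLC25A3 held 4.41, 5.22 and 4.09% of it in Sh-NC and 10.99, 12.04 and 9.85% in Sh-YAP1.

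Among the carriers of di- and tricarboxylates and the uncoupling-protein-like carriers, none of 8 passed the test, 1 had separate groups (29.4% of all genes) and 7 had a log2 fold change below 0 (50.2% of all genes), with a median of −0.18. SLC25A30, an uncoupling-protein-like carrier, was at 6.31, 6.27 and 5.84 FPKM in Sh-NC and at 4.77, 4.31 and 4.18 FPKM in Sh-YAP1. Every Sh-YAP1 library was below every Sh-NC library, and the log2 fold change was −0.40 ± 0.09 (SE, adjusted p = 0.0614), which misses the threshold. Its antisense neighbour TPT1-AS1 on the opposite strand had a log2 fold change of 0.07. The strand used in counting is not given in the sources used here. SLC25A1, which exports citrate for lipid synthesis, had the highest mean of this group over the 6 libraries, although SLC25A11 was higher in the Sh-NC mean. It overlapped between the groups, at 34.76, 39.04 and 53.17 FPKM in Sh-NC and 34.17, 59.74 and 33.72 FPKM in Sh-YAP1. SLC25A11, the oxoglutarate carrier of the malate-aspartate shuttle, had means of 42.98 ± 7.40 and 36.98 ± 4.03 FPKM, and SLC25A10, the dicarboxylate carrier, 15.6 ± 2.46 and 13.9 ± 2.77 FPKM (SD, n = 3 each).

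Among the carriers of amino acids and acylcarnitines, none of 9 passed the test and 2 had separate groups (29.4% of all genes), both lower in Sh-YAP1 (14.7% of all genes). In 5 of the 9 the log2 fold change was below 0, with a median of −0.03. SLC25A20, which brings acylcarnitines in for fatty acid oxidation, was at 8.09, 9.95 and 8.77 FPKM in Sh-NC and at 5.83, 7.82 and 6.40 FPKM in Sh-YAP1 (log2 fold change −0.38 ± 0.13, adjusted p = 0.153). SLC25A15, the ornithine carrier of the urea cycle, was at 6.95, 6.90 and 6.97 FPKM in Sh-NC and at 5.26, 5.62 and 6.42 FPKM in Sh-YAP1 (−0.23 ± 0.09, adjusted p = 0.199). Neither difference passed the test over all genes. The pair of aspartate/glutamate carriers went the other way on average, with SLC25A13 at a log2 fold change of 0.17 and SLC25A12 at 0.09, and both overlapped. SLC25A12 stood at 0.548 ± 0.00766 of SLC25A13 in Sh-NC and at 0.525 ± 0.0893 in Sh-YAP1 (SD, n = 3 each). SLC25A38, a glycine carrier needed for haem synthesis and the most abundant of the group, was at 23.58, 24.19 and 21.94 FPKM in Sh-NC and 19.83, 21.15 and 22 FPKM in Sh-YAP1. Its groups overlapped by 1 library (−0.14 ± 0.08, adjusted p = 0.334).

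The carriers of cofactors, nucleotides, glutathione and metals formed the largest group, and none of 13 passed the test. Their groups were separate in 5 of 13 (38.5%, against 29.4% of all genes), with 2 higher and 3 lower. In 9 of the 13 the log2 fold change was below 0, with a median of −0.15. The pyrimidine nucleotide carrier SLC25A33 was at 2.15, 2.52 and 2.67 FPKM in Sh-NC and at 1.45, 1.76 and 1.93 FPKM in Sh-YAP1 (−0.35 ± 0.11, adjusted p = 0.151), and SLC25A36, which carries the same class of substrate, overlapped at −0.15. SLC25A51, the NAD carrier, had means of 10.6 ± 0.528 and 9.26 ± 0.382 FPKM (adjusted p = 0.240). In SLC25A33 and SLC25A51 the gap between the nearest libraries was small beside their level.

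The mitochondrial iron carrier SLC25A37 was at 30.16, 32.58 and 28.90 FPKM in Sh-NC and at 40.11, 33.95 and 33.36 FPKM in Sh-YAP1 (0.22 ± 0.10, adjusted p = 0.243). SLC25A28, the other iron carrier, varied from 5.28 to 21.23 FPKM within Sh-NC alone and from 5.89 to 17.22 FPKM within Sh-YAP1. The coenzyme A carrier SLC25A42 was at 3.41, 3.17 and 3.13 FPKM in Sh-NC and at 3.45, 3.73 and 4.03 FPKM in Sh-YAP1 (0.16 ± 0.09, adjusted p = 0.350). SLC25A16, also tied to coenzyme A, overlapped at 0.35 ± 0.15. SLC25A39, a glutathione carrier and the most abundant of the group, was at 52.54, 47.89 and 39.62 FPKM in Sh-NC and 37.89, 82.71 and 43.55 FPKM in Sh-YAP1. Sh-YAP1 replicate 2 alone put its Sh-YAP1 mean above that of Sh-NC: the log2 fold change was 0.15 with that library and −0.19 without it. SLC25A40, the related glutathione carrier, had means of 2.62 ± 0.0872 and 2.60 ± 0.227 FPKM.

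SLC25A53, a carrier with no settled substrate, was the single member of the 39 that passed the test. It lies on chromosome X (identifier ENSG00000269743) and stood at 2.58, 2.70 and 3.24 FPKM in Sh-NC and at 5.11, 5.66 and 6.13 FPKM in Sh-YAP1. Every Sh-YAP1 library was above every Sh-NC library. The means were 2.84 ± 0.352 and 5.63 ± 0.511 FPKM (SD, n = 3 each) and the log2 fold change 0.79 ± 0.11 (SE, 95% interval 0.53 to 1.05, adjusted p = 0.0213). With 1 library left out at a time, the log2 fold change ran from 0.74 to 0.86. The adjusted p stayed under the threshold without Sh-NC replicate 3 (0.0426) and was above it without each other library (0.0525 to 0.0804). Without the filter on low genes it was 0.0521.

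The gene has 2 rows, which differed in direction. The larger was at 2.04, 2.21 and 2.71 FPKM in Sh-NC and at 4.80, 5.39 and 5.84 FPKM in Sh-YAP1, and the smaller at 0.54, 0.49 and 0.53 FPKM in Sh-NC and 0.31, 0.27 and 0.29 FPKM in Sh-YAP1. ZCCHC18, which overlaps it on the opposite strand, had a log2 fold change of 0.06. The remaining carriers of this group were SLC25A46, an outer-membrane protein tied to mitochondrial shape, at 0.36 ± 0.32, and SLC25A43 at −0.04 ± 0.41 (log2 fold change and SE), and both overlapped. Of these 3 carriers, 1 had a log2 fold change below 0.

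**Figure D4:**
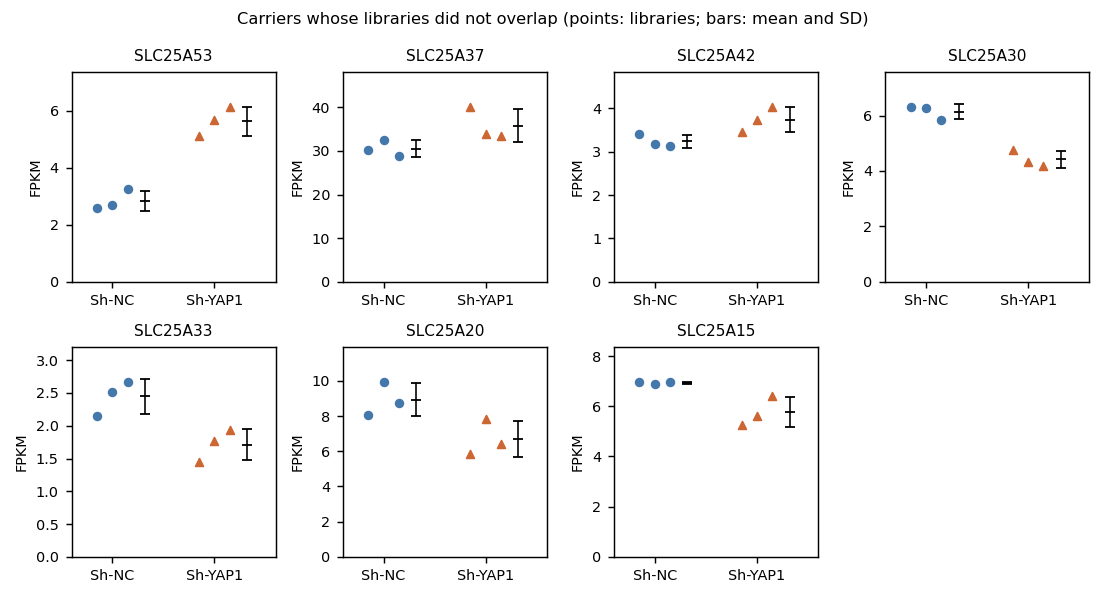
FPKM of 7 carriers whose groups did not overlap, with points for single libraries and bars for the mean and SD of 3 libraries per group. SLC25A53, from 2.84 to 5.63 FPKM on average, is the one that passed the test over all genes, and the others differ by less relative to their spread.

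Some carriers were measured with far more spread than others. The standard error of the log2 fold change ran from 0.07 to 0.53 with a median of 0.15, and it was over 0.25 in 8 of the 39, namely SLC25A28, SLC25A43, SLC25A29, SLC25A22, SLC25A32, SLC25A46, SLC25A39 and SLC25A1. Transcript rows could differ widely between libraries of the same group. For SLC25A46 the leading row was at 0.54, 3.05 and 17.14 FPKM in Sh-NC and at 20.13, 3.89 and 19.76 FPKM in Sh-YAP1. For SLC25A22 it was at 2.31, 1.67 and 1.75 FPKM in Sh-NC and at 13.56, 15.71 and 0.00 FPKM in Sh-YAP1, while the second row was at 17.14 FPKM in Sh-NC replicate 2 and at 4.17 FPKM or less elsewhere. In SLC25A44 the first 2 rows traded places in Sh-NC replicate 3, at 1.74 and 13.67 FPKM. Across the carriers the leading row held over 90% of the gene in 8 and less than 50% in 12. Of 186 rows of the 39 carriers tested singly, 0 passed an adjusted p of 0.05 in limma (smallest 0.374, and 0.0515% of all rows passed), and 9 or 4.84% had an unadjusted p under 0.05, against 6.12% of all rows.

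The genes around the carriers were read from 4 lists of 43 genes, of which 40 reached 0.5 FPKM. Of these, 1 passed the test, lower in Sh-YAP1, and 16 had separate groups (2 higher and 14 lower). Over all genes 3.38% passed and 29.4% had separate groups, 14.6% higher and 14.7% lower. PPIF, cyclophilin D, a matrix regulator of the permeability transition, was at 96.14, 95.85 and 93.56 FPKM in Sh-NC and at 69.26, 74.16 and 71.88 FPKM in Sh-YAP1. It fell by 0.40 on the log2 scale (SE 0.06, adjusted p = 0.0250), and its groups were far apart beside their spread. With 1 library left out at a time, whichever it was, its adjusted p was 0.0655 to 0.0964.

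PPIF stands in the list of shuttle and partner enzymes, where 1 of 10 tested genes passed the test (3.38% of all genes), 9 had a log2 fold change below 0 (50.2% of all genes), 7 had separate groups, all lower in Sh-YAP1 (14.7% of all genes), and the median log2 fold change was −0.21. The most abundant was MDH1, the cytosolic malate dehydrogenase of the malate-aspartate shuttle, at 131.84, 126.29 and 117.36 FPKM in Sh-NC and 107.29, 114.12 and 110.40 FPKM in Sh-YAP1 (−0.18, adjusted p = 0.205). GOT2, the mitochondrial aspartate aminotransferase, had −0.36 (adjusted p = 0.0571). SLC25A11, SLC25A12 and SLC25A13, which carry the substrates of these enzymes, overlapped between groups.

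In the list for carrier import, 0 of 13 genes passed the test, 5 or 38.5% had separate groups (1 higher and 4 lower, against 29.4% of all genes), 10 had a log2 fold change below 0 and the median was −0.21. TOMM40, the pore through which carriers enter, was the most abundant, at 72.84, 76.21 and 102.56 FPKM in Sh-NC and 51.21, 55.76 and 58.91 FPKM in Sh-YAP1 (−0.58 ± 0.14, adjusted p = 0.0798). TIMM22, the insertion channel, had −0.28 (adjusted p = 0.0771) and TOMM70, the receptor for carrier precursors, −0.32 (adjusted p = 0.0794), while the receptor TOMM22 had 0.30 (adjusted p = 0.0681). None of these differences passed the threshold.

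Among 14 other mitochondrial membrane transporters, 0 passed, 3 or 21.4% had separate groups (1 higher and 2 lower, against 29.4% of all genes), 9 had a log2 fold change below 0 and the median was −0.06. VDAC1, the main outer-membrane channel, was the most abundant and overlapped, at 199.34, 204.29 and 159.40 FPKM in Sh-NC and 165.61, 126.90 and 181.84 FPKM in Sh-YAP1. Of the relatives that lack the SLC25A symbol, 0 of 3 tested passed and 1 had separate groups (29.4% of all genes) and a log2 fold change below 0. UCP2, an uncoupling-protein family member, was at 47.04, 51.93 and 46.80 FPKM in Sh-NC and at 24.61, 40.36 and 25.62 FPKM in Sh-YAP1 (−0.70 ± 0.19, adjusted p = 0.0976). Without Sh-YAP1 replicate 2, the highest of its group, UCP2 had a log2 fold change of −0.92 (adjusted p = 0.0371). Without rows of at least 10 FPKM in one group that are listed at 0 throughout the other, it was −0.22. MTCH1, the most abundant relative, was at 297.44 FPKM in Sh-YAP1 replicate 1 and between 158 and 184 FPKM in the other 5 libraries.

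**Figure D5:**
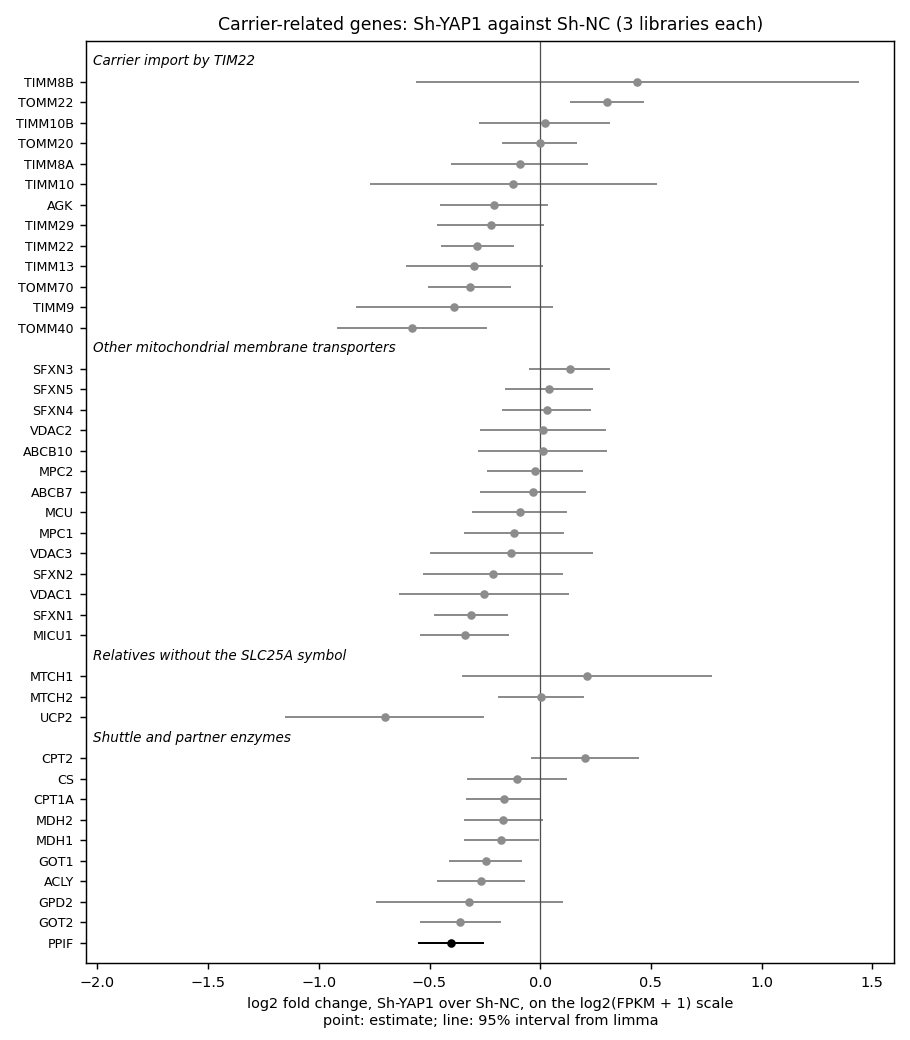
Log2 fold change of 40 carrier-related genes in 4 lists, Sh-YAP1 over Sh-NC on the log2(FPKM + 1) scale, with lines for the 95% interval. PPIF at −0.40 (black) passed the test over all genes, and UCP2 at −0.70 has the lowest estimate with a wider interval.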

How the data were processed

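The RNA-sequencing was of MDA-MB-231 cells. The methods of the paper give a different deposited series for it, so these libraries were tied to the paper through the cell line and hairpins that their labels state. The authors deposited FPKM values with 2 decimals, 1 row per transcript in the same order for every library. The submitters' processing notes name hg19, Bowtie 0.12.2 and HISAT2 2.0 without saying which step used them, and the annotation, the quantification settings and the strand are not given in the sources used here. Those steps cannot be varied here, and the way reads were divided between transcripts enters every row.

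Rows with the same gene identifier were summed. The 14770 genes averaging 0.5 FPKM or more were tested with limma 3.58.1 (R 4.3.3) on log2(FPKM + 1) with a mean-variance trend and Benjamini-Hochberg adjustment over all of them. Fold changes are on this scale, which understates those of low genes. The 77655 single rows averaging 0.1 FPKM or more were tested likewise. An exact permutation test of 3 against 3 libraries cannot go below p = 0.1, so none is given. Positions come from GENCODE 29 (GRCh38) and promoters from RefSeq.

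The family, the 4 lists of related genes and the substrate groups were chosen with earlier results of these data known. Named by rule were YAP1, SLC25A3, each carrier past adjusted p 0.05, the most abundant of each group, the 3 largest rises and falls among those with separate groups, those nearest the limit of 0.5 FPKM, and in each related list the genes past the threshold and the most abundant. Any other gene was named with its values in view. The alternatives were of the pseudocount, scaling, filter, trend, replicate block, rows included and single libraries. The values of 1 carrier are counted in the totals and not reported here.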

Additional observations from a re-analysis of the deposited data

How the results depend on the processing

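Of 17 alternatives, 2 were chosen after seeing the data: sums without abundant rows listed at 0 throughout one group, and sums that also leave out abundant rows listed at 0 in any library. Counts of carriers cover all 40, and the one counted as lower is SLC25A3, which was chosen with its values known. No test of it is drawn on. Without a filter on low values 232 genes passed, with 0 carriers higher (SLC25A53 missed the threshold) and 0 lower, against 499 with the filter, and the log2 fold change of SLC25A3 was −1.36 with and without it. A replicate block left 1 gene past the threshold, with 0 carriers higher (SLC25A53 at an adjusted p of 0.105), 0 lower and 0 related genes, and SLC25A3 was again at −1.36. Deviations of same-numbered libraries correlated at −0.03, 0.06 and 0.00, so the numbers were not taken to pair the libraries. Without rows at 0 throughout one group, SLC25A3 reversed to 0.22 and 0 carriers were lower. Without rows at 0 in any library, it reversed to 1.27, with 2 carriers higher and 0 lower, which follows from the rows left out. SLC25A1 reversed to 0.013 with quantile normalization.

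With 1 library left out, 78 to 171 genes passed, with 0 to 1 carriers higher, 0 to 1 lower and 0 to 1 related genes. SLC25A3 ran from −1.58 to −1.16. PPIF lost its call in all 6 of these fits and with the block, and the related gene called was UCP2, without Sh-YAP1 replicate 2. SLC25A1 ran from −0.29 to 0.15, SLC25A27 from −0.16 to 0.19 and SLC25A39 from −0.19 to 0.37, each changing sign. The median log2 fold change over all 40 carriers, SLC25A3 included, was −0.08 in the main fit. It stayed between −0.12 and −0.05 under every alternative run, and YAP1 stayed past the threshold in all 17. Depth is unknown, so the precision of low values could not be given.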

Other observations

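Transcripts named after the carriers but outside the coding family were low. Of 43 SLC25 pseudogenes, 0 reached a mean of 0.5 FPKM, and the highest, SLC25A53P1, had a mean of 0.315 FPKM. Of 7 antisense or divergent RNAs, 3 reached 0.5 FPKM. SLC25A5-AS1 was at 0.57, 0.35 and 0.68 FPKM in Sh-NC and at 0.65, 0.63 and 0.99 FPKM in Sh-YAP1. SLC25A21-AS1 was at 0.30, 0.35 and 0.57 FPKM in Sh-NC and at 0.55, 0.97 and 0.68 FPKM in Sh-YAP1, and SLC25A25-AS1 had means of 0.673 ± 0.0404 and 0.593 ± 0.0764 FPKM (SD, n = 3 each). The groups overlapped in all 3. Of the 40 carriers, 28 overlap another gene of GENCODE 29, 13 of them on the same strand, and without the strand of counting the shares of overlapping partners cannot be told apart.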
